A study of Mus musculus with 12 samples.

Results

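The comparison described here is that of lower motor neurons homozygous for the Q331K change of TDP-43 (Q331K/Q331K) with those heterozygous for it (Q331K/+). Each genotype had 4 libraries, so 8 of the 12 libraries of the series were compared, chosen by the genotype in their labels. The other 4 libraries came from wild type mice and are given beside the mutants. All 3 genotypes were on the C57BL/6 strain background and were sampled at 5 months of age, and the mutation is a knock-in at the mouse's own Tardbp gene, so no transgene promoter is involved. Neither group of this comparison is free of the mutation: heterozygotes carry 1 mutant allele and homozygotes 2. Motor neurons were isolated from lumbar spinal cord by laser capture, and polyadenylated RNA was sequenced after template-switching amplification of 10 PCR cycles, with 150 pg of cDNA as input to each library. Whether a library stands for 1 animal or for a pool is not stated in the labels, and all p-values therefore measure the spread between libraries.

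TDP-43, the product of Tardbp, is a nuclear RNA-binding protein that binds UG-rich sequence in introns and 3′ ends, represses cryptic exons and limits its own transcript. Its glycine-rich C-terminal region, where Q331K lies, carries most of the TDP-43 changes linked to amyotrophic lateral sclerosis (ALS), a disease in which motor neurons degenerate. Lower motor neurons are large cholinergic cells with long axons to muscle and make neurofilaments and peripherin in bulk. A comparison of 2 mutant alleles with 1 asks which transcripts differ with a second mutant allele once the first is present. In a knock-in the second mutant allele takes the place of the remaining wild type allele. Gain of the one and loss of the other cannot be told apart here.

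Tardbp lies on the minus strand of chromosome 4 at 148612382 to 148627019 (ENSMUSG00000041459, GRCm38). In the knock-in the glutamine codon of Q331K encodes lysine. Gene-level counts do not separate the alleles, so the mutation itself was not read from these data.

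Tardbp was at 72.2, 76, 78.2 and 65.7 CPM (counts scaled to the library total, in the usual units) in heterozygote replicates 1 to 4. In homozygotes it was at 78.8, 75, 74.8 and 73.8 CPM, and in wild type at 62.3, 78.7, 76.1 and 77.8 CPM. The values of the 3 genotypes overlapped. The log2 difference, homozygotes minus heterozygotes, was 0.05 with a 95% interval from -0.16 to 0.26 (exact two-sided permutation p = 0.486, n = 4 against 4). Masp2, on the opposite strand, overlaps Tardbp and held 7.5% as many counts as Tardbp; the kits keep no strand, so some reads of the pair cannot be told apart.

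The captured cells carried motor neuron transcripts in all 8 libraries. Chat, the enzyme that makes acetylcholine, was at 353, 117, 149 and 87.6 CPM in heterozygotes and at 329, 169, 135 and 173 CPM in homozygotes. Prph, the peripherin filament chain, was at 1730, 643, 785 and 553 CPM and at 1630, 832, 905 and 742 CPM. In both genotypes replicate 1 had the highest level of both genes. These 2 libraries also nearly lacked Slc17a6 and, in sum, the inhibitory interneuron markers. Slc17a6, the glutamate transporter of excitatory interneurons, was at 0.563 CPM in heterozygote replicate 1 and 4.52 CPM in homozygote replicate 1, against 160 to 316 CPM in the other 6 mutant libraries. The 13 inhibitory interneuron markers summed to 5.07 and 7.28 CPM in these libraries and to 201 to 355 CPM in the other 6. The 14 excitatory interneuron markers fell less, to 88.1 and 97.8 CPM against 216 to 362 CPM. One of them, Cck, went the other way, at 87.5 and 92.6 CPM in these libraries against 34.4 to 54.3 CPM. The summed levels of motor neuron and inhibitory interneuron markers overlapped between genotypes, with these libraries and without them. Total counts ran from 65322527 to 78842784 in heterozygotes and from 60886825 to 74788288 in homozygotes, and 4 measures of quality (this total, the number of genes detected, the mitochondrially encoded share and the share held by the top 10 genes) had exact permutation p-values of 0.229 to 0.8 (adjusted p 0.8 for each over the 4 measures, smallest possible p 0.0286).

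**Figure D1:**
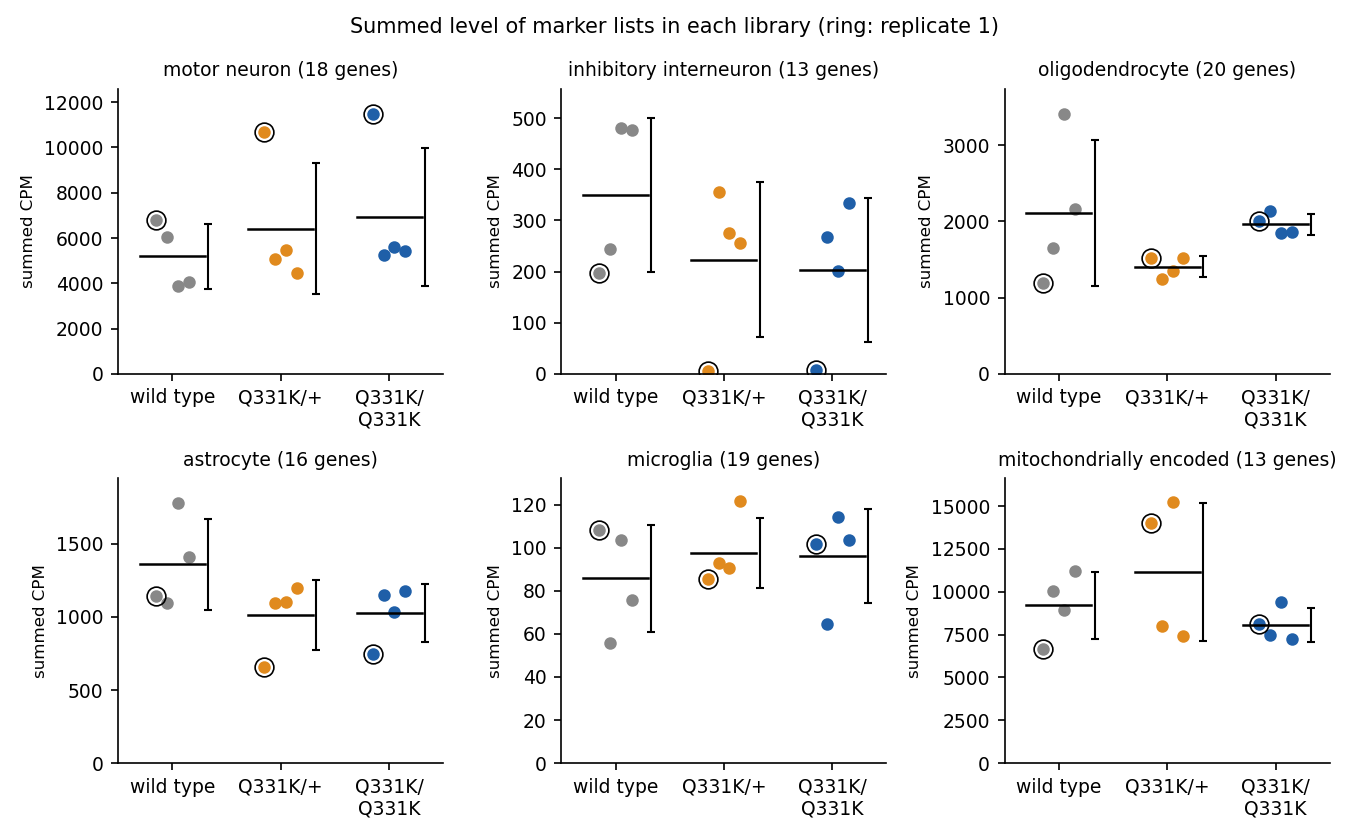
Summed CPM of the genes of 6 lists (y axis, linear, from 0) in each of the 12 libraries by genotype (x axis). Points are libraries, lines are means, bars beside them are SD (n = 4), and rings mark replicate 1; the 20 oligodendrocyte markers lie at 1239 to 1520 CPM in heterozygotes and 1842 to 2138 CPM in homozygotes, while the other 5 lists overlap.

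No gene passed the test of homozygotes against heterozygotes. The edgeR quasi-likelihood test called 0 of 16338 genes (0%) at a Benjamini-Hochberg adjusted p below 0.05, and the lowest edgeR adjusted p was 1. At an unadjusted p below 0.05 it found 486 genes (2.97%), 241 higher in homozygotes (1.48%) and 245 lower (1.5%), where 817 would be expected by chance if no gene differed and p-values were uniform. Without heterozygote replicate 1 the unadjusted count was 853, and without both replicate 1 mutant libraries it was 713, with 0 genes at an adjusted p below 0.05 in either case. limma-voom called 0 genes, and DESeq2 called 3 of 16289 (0.0184%), Gfpt2, Fut4 and Lrrc9, each with a DESeq2 adjusted p of 0.028. The levels of the 2 genotypes did not overlap for 2.03% of the 16338 genes, with homozygotes higher for 168 (1.03%) and lower for 163 (0.998%). Of all tested genes 8144 (49.8%) had a log2 difference above 0, and the median was -0.000498.

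How large a difference the data could have hidden depended on the level of the gene. For 9646 of 16338 genes (59.0%) the 95% interval of the difference lay within 2-fold in both directions. At 32 CPM or more this held for 5502 of 5651 genes (97.4%), and under 1 CPM for 0 of 2775. A difference of 2-fold or more was therefore outside the interval for most abundant genes, while for transcripts under 1 CPM no such limit was reached.

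**Figure D2:**
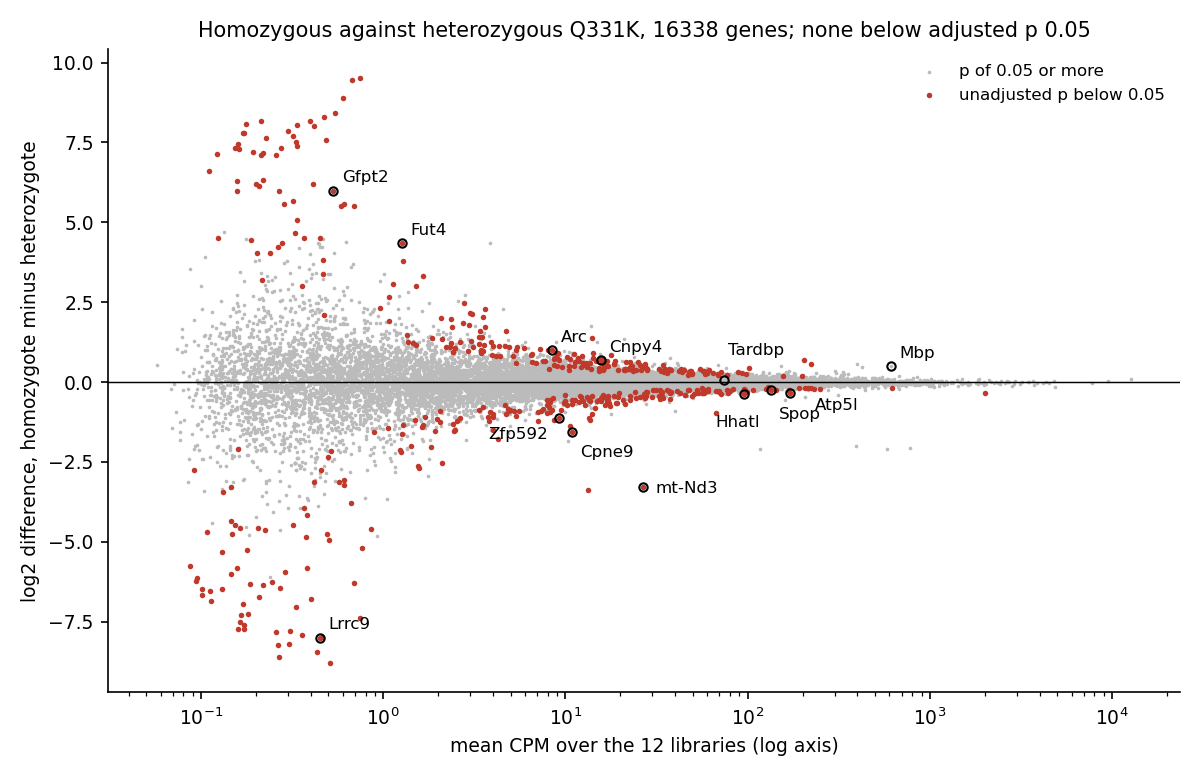
Log2 difference of homozygotes minus heterozygotes (y axis) against the mean CPM over the 12 libraries (x axis, log scale) for 16338 tested genes, 1 point a gene; red marks the 486 genes with an unadjusted p below 0.05. Differences spread widely under 1 CPM and narrow with level, and Tardbp lies near 0.

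Among genes lower in homozygotes, the smallest p belonged to Zfp592, a zinc finger protein (chromosome 7, 80993681 to 81045164, plus strand). It was at 11, 11.6, 19.1 and 9.93 CPM in heterozygotes, at 4.32, 7.16, 5.94 and 6.06 CPM in homozygotes and at 7.82 to 9.54 CPM in wild type. Every homozygote library lay below every wild type library, and every heterozygote library above them. The log2 difference was -1.14 (SE 0.24, edgeR adjusted p = 1, DESeq2 adjusted p = 0.051), and it ran from -1.25 to -0.89 over the alternatives. Rpap1, a protein that binds RNA polymerase II, was at 9.48, 14.4, 16.5 and 20 CPM in heterozygotes and at 2.38, 7.2, 4.4 and 9.27 CPM in homozygotes. Its groups did not overlap either, although heterozygote replicate 1 (9.48 CPM) and homozygote replicate 4 (9.27 CPM) nearly met. Kdm3a, a demethylase of histone H3 lysine 9, was at 14.6, 17.2, 15 and 24.4 CPM and at 9.12, 6.05, 4.47 and 13 CPM in the same order. Dennd1a, an activator of the endocytic GTPase Rab35, was at 22.2, 18.8, 20.2 and 14.5 CPM and at 8.61, 13.8, 13.3 and 7.62 CPM. The groups did not overlap for either gene, with log2 differences of -1.12 for Kdm3a and -0.81 for Dennd1a. Crb2 and Gm13556 lie on the opposite strand within Dennd1a, and the larger of them held 4.22% as many counts.

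Hhatl, a protein of the endoplasmic reticulum related to the acyltransferase of hedgehog, was the most abundant gene among the 20 with the smallest p in either direction. Its level was 104, 103, 98.6 and 124 CPM in heterozygotes, 87.7, 86.3, 83.9 and 75.8 CPM in homozygotes and 86.5 to 107 CPM in wild type. The mutant groups did not overlap, the wild type libraries spanned the gap, and the log2 difference was -0.37 (SE 0.10, edgeR adjusted p = 1). For Cpne9, a calcium-dependent phospholipid-binding copine, heterozygotes were at 5.04, 14.7, 21.9 and 22.6 CPM and homozygotes at 3.29, 5.08, 6.46 and 6.8 CPM. Its groups overlapped because heterozygote replicate 1 was as low as the homozygotes. Snapc4, a subunit of the complex that starts transcription of small nuclear RNA genes, was at 17, 19, 25.6 and 12.5 CPM and at 6.25, 8.09, 12.9 and 9.92 CPM, with an overlap of heterozygote replicate 4 and homozygote replicate 3. Tifa, an adaptor of TRAF6 signalling, was at 5.73 to 11.2 CPM in heterozygotes and 2.41 to 5.26 CPM in homozygotes. It shares its locus with Ap1ar on the opposite strand, which held 954% as many counts, so the Tifa values are uncertain.

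Of the tested genes, 33 had 0 counts in all homozygotes and 34 in all heterozygotes, mostly with counts in only some libraries of the other genotype. Counts in all 4 libraries of the other genotype were found for 3 of the 33 and 1 of the 34. The 3 were Lrrc9, Ptger3 and 4930550C14Rik, the last with 110 counts over the heterozygotes and named after its values were seen. Lrrc9, a leucine-rich repeat protein, was at 0.0141, 0.934, 0.36 and 0.471 CPM in heterozygotes, had 0 counts in all 4 homozygote libraries and was at 0.19 to 1.53 CPM in wild type. With the homozygote group set at a floor of 3 counts it was at least 42.5-fold lower in homozygotes, with 134 counts over the heterozygote libraries. Ptger3, the EP3 receptor of prostaglandin E2, was at 0.324, 0.353, 0.405 and 0.471 CPM in heterozygotes and at 0 in all 4 homozygotes, which made it at least 35.8-fold lower. In wild type Ptger3 was at 1.16, 0, 0.609 and 0.357 CPM, so 1 wild type library also had none. Counts of amplified cDNA without molecular identifiers are not independent molecules, and these floors cover counting error only.

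Among genes higher in homozygotes, the smallest p belonged to Gfpt2, an enzyme of the hexosamine pathway (chromosome 11, 49794178 to 49838613, plus strand). Its only count in heterozygotes was 1 in replicate 1, and it was at 0.174, 0.821, 0.207 and 0.118 CPM in homozygotes, 91 counts in all. The ratio of the group levels was 95.6 with an exact 95% counting interval from 16.7 to 3820. That interval covers counting error only and not the spread between libraries, and homozygote replicate 2 held 57 of the 91 counts. The edgeR log2 difference, which takes in the spread between libraries, was 5.99 with a 95% interval from 3.42 to 8.56. Wild type libraries held more than either mutant group, at 1.83, 0.896, 1.37 and 0.963 CPM. Fut4, the fucosyltransferase that makes the Lewis x antigen, was at 0, 0.0126, 0.27 and 0.148 CPM in heterozygotes, at 1.62, 1.21, 1.31 and 4.71 CPM in homozygotes and at 0.737 to 2.46 CPM in wild type. The heterozygote libraries lay below all others, and the log2 difference was 4.35 (SE 1.12, edgeR adjusted p = 1).

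Cnpy4, a canopy family protein of the endoplasmic reticulum, had the smallest p of the genes above 8 CPM with a higher level in homozygotes. Heterozygotes were at 13.9, 14.4, 11.7 and 11.1 CPM, homozygotes at 22.7, 22.4, 18.3 and 18.8 CPM, and wild type at 11.8 to 16 CPM. The 4 homozygote libraries lay above the other 8, and the log2 difference was 0.68 (SE 0.16, edgeR adjusted p = 1). Arc, the activity-regulated cytoskeletal protein of synapses, was at 6.04, 3.63, 5.95 and 6.79 CPM in heterozygotes and at 12.7, 10.3, 12.6 and 9.35 CPM in homozygotes. Its mutant groups did not overlap, while wild type ran from 6.15 to 12.9 CPM across both. Wdr17, a WD repeat protein, was at 8.01, 6.99, 10 and 14.8 CPM and at 21.5, 17.2, 17.4 and 19.1 CPM without overlap. Ipmk, inositol polyphosphate multikinase, was at 9.46 to 16.4 CPM and 15.4 to 23.5 CPM, where heterozygote replicate 1 overlapped the homozygotes.

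The other genes with the smallest p in this direction were immune or sensory transcripts near 0. Fasl, the ligand of the death receptor Fas, had 0 counts in heterozygotes and was at 0.537, 0.504, 0.479 and 0.0132 CPM in homozygotes, at least 36.1-fold higher. Cd14, a coreceptor for bacterial lipopolysaccharide, had 0 counts in heterozygotes and was at 0, 0.691, 0.59 and 0.171 CPM in homozygotes, at least 34.3-fold higher as a group. In wild type Cd14 was at 0.333 to 1.14 CPM, above all heterozygotes, but homozygote replicate 1 was at 0 like them, so the mutant groups overlapped. Ptpn6, a phosphatase of blood cells, had 1 count over the heterozygotes and was at 1.04, 0.36, 1.05 and 1.33 CPM in homozygotes, and Gm20531 on the opposite strand held 7.86% as many counts. Guca1a, a guanylate cyclase activator of photoreceptors, had 0 counts in heterozygotes and was at 0, 0.461, 0.128 and 0.434 CPM in homozygotes, at least 25.6-fold higher as a group but with an overlap. These floors, too, cover counting error only.

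**Figure D3:**
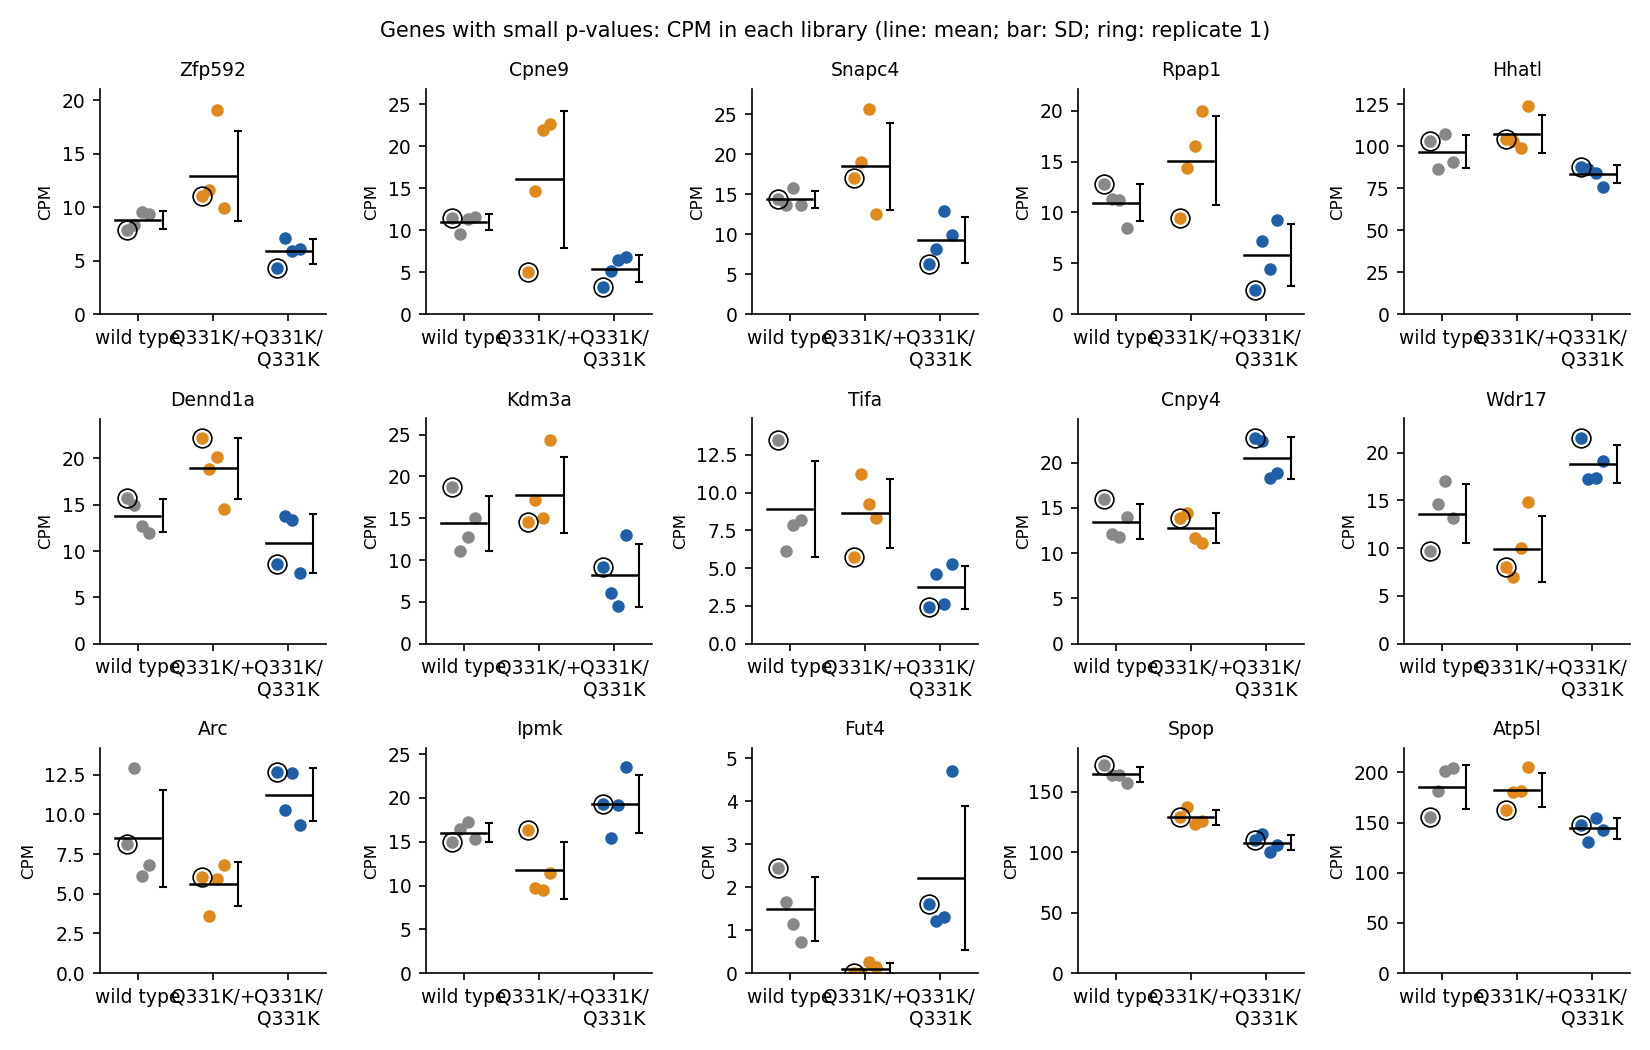
CPM in each library (y axes, linear, from 0) of 15 genes in wild type, Q331K/+ and Q331K/Q331K (x axes); lines are means, bars SD (n = 4) and rings replicate 1. Homozygotes lie apart from heterozygotes for most of them, and wild type libraries often lie between, as for Zfp592.

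Wild type levels lay between the mutants for most of these genes. The wild type mean stood between the heterozygote and homozygote means for 14 of the 20 genes with the smallest p and for 333 of the 486 with an unadjusted p below 0.05 (68.5%), against 4528 of 16338 genes (27.7%) overall. These genes were picked by the distance between the mutants, so the shares are a description. An order by number of mutant alleles, with heterozygotes in the middle, was found for 89 of the 486. This was a smaller share than the 6299 of 16338 genes overall.

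Spop was one gene in that order. It encodes the adaptor that brings substrates to the cullin 3 ubiquitin ligase. Wild type libraries held 172, 164, 164 and 157 CPM. The level was 129, 137, 123 and 126 CPM in heterozygotes and 110, 115, 100 and 106 CPM in homozygotes, with no overlap between any of the genotypes. Between the mutants the log2 difference was -0.26 with a 95% interval from -0.41 to -0.10 (edgeR adjusted p = 1), and it ran from -0.29 to -0.22 over the alternatives. Of the 19 cullin 3 ligase genes, 14 were lower in homozygotes and 0 passed the test, with a median of -0.07 against -0.000498 over all genes. The 4 core subunits were all lower, with differences of -0.18 to -0.00495 on the log2 scale. Among the adaptors, Btbd9 was at 43.3 to 49.7 CPM in heterozygotes and 29.9 to 42.4 CPM in homozygotes, and Spopl, the paralog of Spop, had a log2 difference of 0.59 with overlapping groups.

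The oligodendrocyte markers had the most uniform direction of the cell type lists with 10 or more tested members. Of 20 markers 19 had a higher level in homozygotes, 3 had an unadjusted p below 0.05, 0 passed the test, and the median log2 difference was 0.47. Over all genes, 49.8% were higher and 2.97% had an unadjusted p below 0.05. Their summed level was 1520, 1239, 1347 and 1519 CPM in heterozygotes and 2003, 2138, 1842 and 1864 CPM in homozygotes. With all 8 libraries this was the only list of 48 whose sums did not overlap, and the ratio of means was 1.39. Without both replicate 1 mutant libraries the ratio was 1.42, and 2 lists did not overlap, the other being the oligodendrocyte precursor markers (28.3, 43.8 and 42.2 CPM against 71.2, 70.8 and 47.6 CPM). Wild type sums, from 1194 to 3411 CPM, spanned both mutants. The lists were drawn up with earlier results of these data known, and so this count is not independent evidence of a direction.

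By member, Mog, a myelin surface protein, was at 24.3, 19.2, 16.6 and 19.5 CPM in heterozygotes and at 39.6, 32, 27.4 and 24.9 CPM in homozygotes. Trf, transferrin, was at 179, 155, 108 and 162 CPM and at 210, 326, 200 and 241 CPM, but the entry Gm20425 covers it on the same strand with about as many counts. Neither gene overlapped between the genotypes, with log2 differences of 0.64 for Mog and 0.69 for Trf. The most abundant marker, Mbp, myelin basic protein, was at 421, 412, 502 and 430 CPM and at 719, 495, 603 and 690 CPM, and heterozygote replicate 3 lay above homozygote replicate 2. Ugt8a, which makes the myelin lipid galactosylceramide, was the 1 marker with a lower level (log2 difference -0.12). In bulk samples, a different number of cells of a type and a different amount of RNA per cell cannot be told apart.

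Markers of several other glia, of vessels and of red blood cells also lay higher in homozygotes, and those of meningeal fibroblasts lay lower. All 7 tested oligodendrocyte precursor markers were higher (median 0.63), as were 14 of 16 astrocyte markers (median 0.29), 11 of 14 endothelial markers (median 0.41) and all 3 red blood cell markers (median 1.37), with 0 of these passing the test. Mural cell markers were higher for 5 of 8 (median 0.36), and meningeal fibroblast markers were lower for 5 of 6 (median -1.97). These medians moved with single libraries. When 1 library was left out they ran from 0.349 without heterozygote replicate 4 to 1.179 without heterozygote replicate 1 for precursors, and down to 0.151 for astrocytes without heterozygote replicate 2. Without homozygote replicate 2 they were 0.229 for endothelial, -0.028 for mural and 0.794 for red blood cell markers, and without heterozygote replicate 4 the fibroblast median was -1.28. Without both replicate 1 mutant libraries the endothelial median was 0.224 and the mural median 0.176. Agt, the angiotensinogen of astrocytes, was at 4.97, 4.67, 9.46 and 10.4 CPM in heterozygotes and at 12.5, 13.6, 13.1 and 10.6 CPM in homozygotes without overlap. Aldoc, the most abundant astrocyte marker, was at 467 to 979 CPM and 511 to 983 CPM, and the summed astrocyte level overlapped (656 to 1194 and 744 to 1174 CPM). Hba-a1, a globin chain, was at 13, 9.22, 11 and 1.5 CPM and at 25.6, 44.5, 8.81 and 10.8 CPM, and homozygote replicates 1 and 2 were the highest. Microglial markers were split 9 to 9. Motor neuron markers were higher for 12 of 18 with a median of 0.05. The Y-linked Eif2s3y was at 27.9 to 42.2 CPM in all 8 libraries. Whether these cell type levels have a part in the other differences was not tested.

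**Figure D4:**
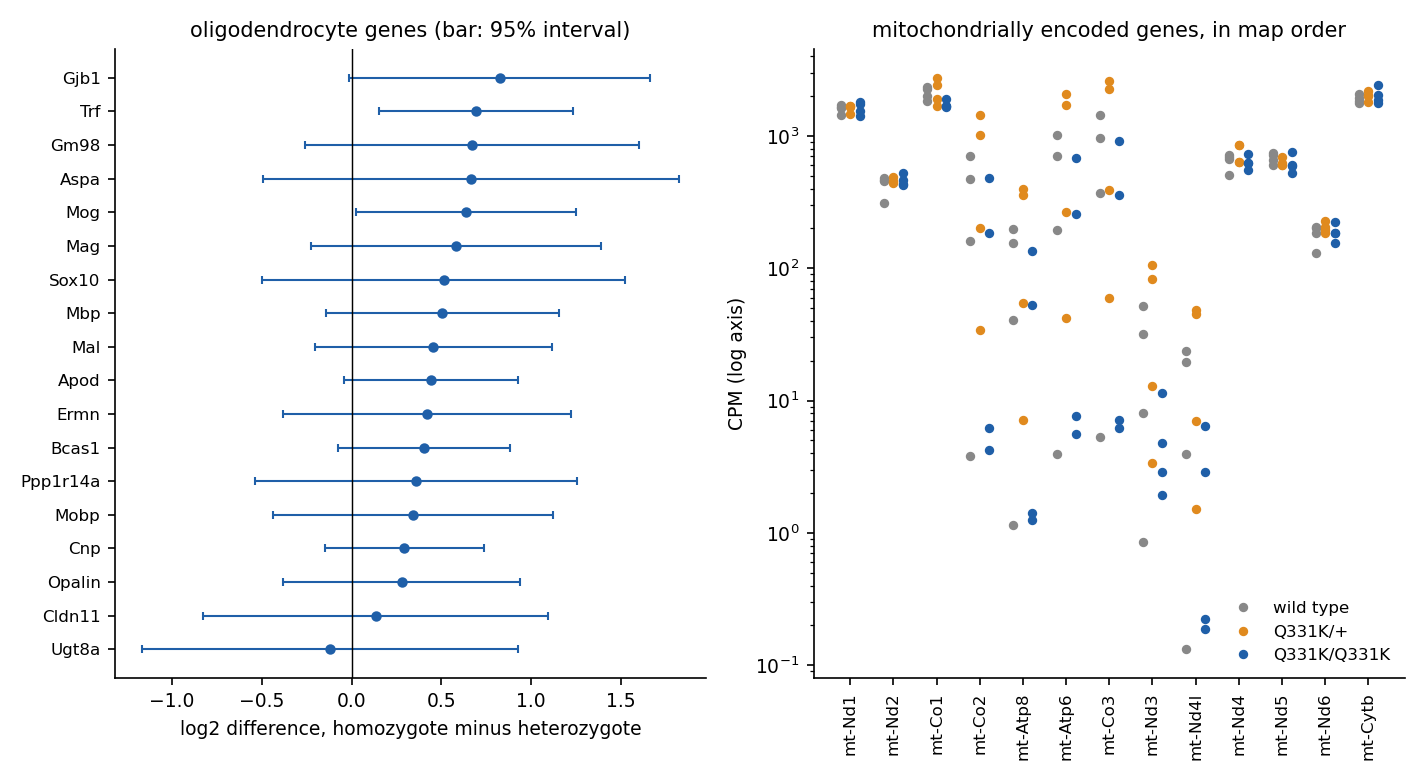
Left, log2 difference of homozygotes minus heterozygotes (x axis) with 95% intervals for 18 oligodendrocyte markers: 17 lie above 0. Right, CPM (y axis, log scale) of the 13 mitochondrially encoded genes in their order on the mitochondrial genome, 1 point a library coloured by genotype: 6 adjacent genes from mt-Co2 to mt-Nd4l spread over at least 122-fold and the other 7 over at most 1.75-fold.

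The mitochondrially encoded respiratory chain genes formed a pair of classes. Of the 13 genes 11 had a lower level in homozygotes (median -0.34), and 3 had an unadjusted p below 0.05, where 2.97% of all genes did. The median was -0.215 without heterozygote replicate 3, -0.451 without heterozygote replicate 4 and -0.276 without both replicate 1 mutant libraries. The summed level was 13984, 7986, 15251 and 7417 CPM in heterozygotes and 8135, 7461, 9401 and 7234 CPM in homozygotes, so heterozygote replicates 1 and 3 stood high. Most of the spread lay in 6 genes that are neighbours on the mitochondrial genome, mt-Co2, mt-Atp8, mt-Atp6, mt-Co3, mt-Nd3 and mt-Nd4l (positions 7013 to 10173). Their summed level was 5498, 932, 6622 and 148 CPM in heterozygotes, 21.4, 865, 2226 and 23.5 CPM in homozygotes and 15.2, 2354, 778 and 3434 CPM in wild type. Each genotype thus had libraries that differed by more than 10-fold, and the spread of each of these genes over the 12 libraries was 122-fold to 521-fold. The other 7 genes varied by 1.27-fold to 1.75-fold, with summed levels of 7054 to 8629 CPM in heterozygotes and 6595 to 8113 CPM in homozygotes, and their median log2 difference was -0.02. This split was made after the values were seen.

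The nuclear genome holds near-identical copies of mitochondrial genes, so reads of these genes may not be told apart from reads of the copies. Unprocessed pseudogenes in GENCODE M21 on chromosome 1, between 24612407 and 24615565 on the minus strand, align without gaps to 5 of the 6. No copy of mt-Atp8 was found, but the search covered annotated transcripts only. The bases between Gm10925, which ends at 24614651, and Gm28661, which starts at 24614885, were not searched, so a copy there would have been missed. Gm28661 matches mt-Co2 at 681 of its aligned bases with 0 mismatches, Gm10925 matches mt-Atp6 over 678 bases with 0, Gm28437 matches mt-Co3 over 783 bases with 0, Gm10222 matches mt-Nd4l over 294 bases with 0, and Gm28438 matches mt-Nd3 over 345 bases with 1. Of these copies 1, Gm10222, has an entry in the count table, and it was at 0.0526 to 0.192 CPM in the 12 libraries. Copies were also found for 2 of the 7 genes that varied little. Gm28439 is a partial copy of mt-Nd4 and matches 876 of its 1378 bases with 0 mismatches. For mt-Co1 there is a full-length copy on chromosome 2 (Gm13340, 1545 bases with 37 mismatches) and a partial one (Gm29216, 492 bases with 6). Over the 12 libraries mt-Nd4 varied by 1.69-fold and mt-Co1 by 1.65-fold. How reads that fit both places were counted is not given in the sources used here, and its part in the spread was not tested. By itself, mt-Co1 was at 2430, 1890, 2750 and 1690 CPM in heterozygotes and at 1670, 1670, 1900 and 1660 CPM in homozygotes, again with heterozygote replicates 1 and 3 high.

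Nuclear genes of the respiratory chain differed little. Of 66 tested, 52 had a lower level in homozygotes, but the median was -0.04 on the log2 scale and 0 passed the test. Atp5l, subunit g of ATP synthase, was at 163, 181, 182 and 205 CPM in heterozygotes, at 148, 131, 155 and 143 CPM in homozygotes and at 156 to 204 CPM in wild type. The mutant groups did not overlap and the log2 difference was -0.34 (SE 0.10, edgeR adjusted p = 1). Lower levels also prevailed among 78 cytosolic ribosomal proteins (55 lower, median -0.04), 18 glycolytic enzymes (15 lower, median -0.02) and 17 citric acid cycle enzymes (12 lower, median -0.02). None of these members passed the test, and neighbouring members of such lists are read from the same libraries, so the counts are not counts of independent observations.

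Synaptic and axonal genes were mixed. Of 49 tested synaptic vesicle and release genes 34 had a lower level in homozygotes (median -0.05), among them all 8 that recycle vesicles. Ap2m1, a subunit of the clathrin adaptor of endocytosis, was at 752, 730, 717 and 762 CPM in heterozygotes and at 680, 711, 640 and 692 CPM in homozygotes, a log2 difference of -0.12 without overlap. Among the motors of axonal transport, Dync1li2, a dynein light intermediate chain, was at 179 to 184 CPM and 199 to 218 CPM, and Klc2, a kinesin light chain, at 128 to 137 CPM and 115 to 126 CPM. Both had groups without overlap and log2 differences of 0.19 and -0.15. Of 18 axon guidance ligands 14 had a higher level (median 0.35), with Efnb3, an ephrin, at 6.25, 5.05, 2.62 and 5.89 CPM in heterozygotes and at 9.92, 10.7, 12.3 and 7.05 CPM in homozygotes. Of 23 tested guidance receptors 12 were higher, and the semaphorin receptor Plxna3 was at 17.7, 12.3, 12.3 and 9.32 CPM and at 7.03, 9.14, 7.01 and 4.75 CPM, lower without overlap.

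Excitability genes and most receptor lists held few small p-values. Of 19 tested cholinergic and monoamine receptor genes, 3 had an unadjusted p below 0.05 by edgeR, 1 higher and 2 lower, where 2.97% of all genes did. Of 10 sodium channel genes 5 were higher, with Scn2a1 at 19.8, 20.3, 25.3 and 24.6 CPM in heterozygotes and 24.3, 29.8, 34.6 and 29.4 CPM in homozygotes. The calcium channel subunit Cacnb2 was at 27.8 to 34.6 CPM and 35.7 to 46.8 CPM without overlap. Potassium channels (23 of 45 higher, median 0.01) and glutamate receptors (12 of 25 higher, median -0.01) had about as many members in each direction. Of 20 immediate early genes 14 were higher (median 0.08), with Arc as the only one at an unadjusted p below 0.05.

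Genes tied to TDP-43 and to ALS showed no common direction. Of 33 ALS genes 17 were higher and 16 lower (median 0.0007), and of 47 splicing factors 27 were higher and 20 lower (median 0.01). Proteasome subunits were higher for 22 of 32 with a median of 0.02, heat shock chaperones for 18 of 28 (median 0.02), and genes of the unfolded protein and integrated stress response for 16 of 30 (median 0.01). Neat1, the noncoding RNA that scaffolds paraspeckles, was at 10.3, 4.96, 3.9 and 13.6 CPM in heterozygotes and at 11.1, 24.7, 16.8 and 9.01 CPM in homozygotes, with an overlap. Transcripts with very long introns are known to depend on TDP-43. By annotated span, the median log2 difference was 0.039 for 498 genes of 300 kb or more and -0.005 for 4965 genes under 10 kb, and 56.6% of the longest genes were higher against 49.8% of all. By library, the median log2 deviation of the longest genes from their mean over the mutant libraries was -0.024 to 0.059 in heterozygotes. In homozygotes it was -0.031 to 0.101, so the genotypes overlapped. Dmd, dystrophin, which spans over 300 kb, was at 19, 24.4, 24 and 21.2 CPM in heterozygotes and at 24.7, 31, 38 and 28.1 CPM in homozygotes without overlap.

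**Figure D5:**
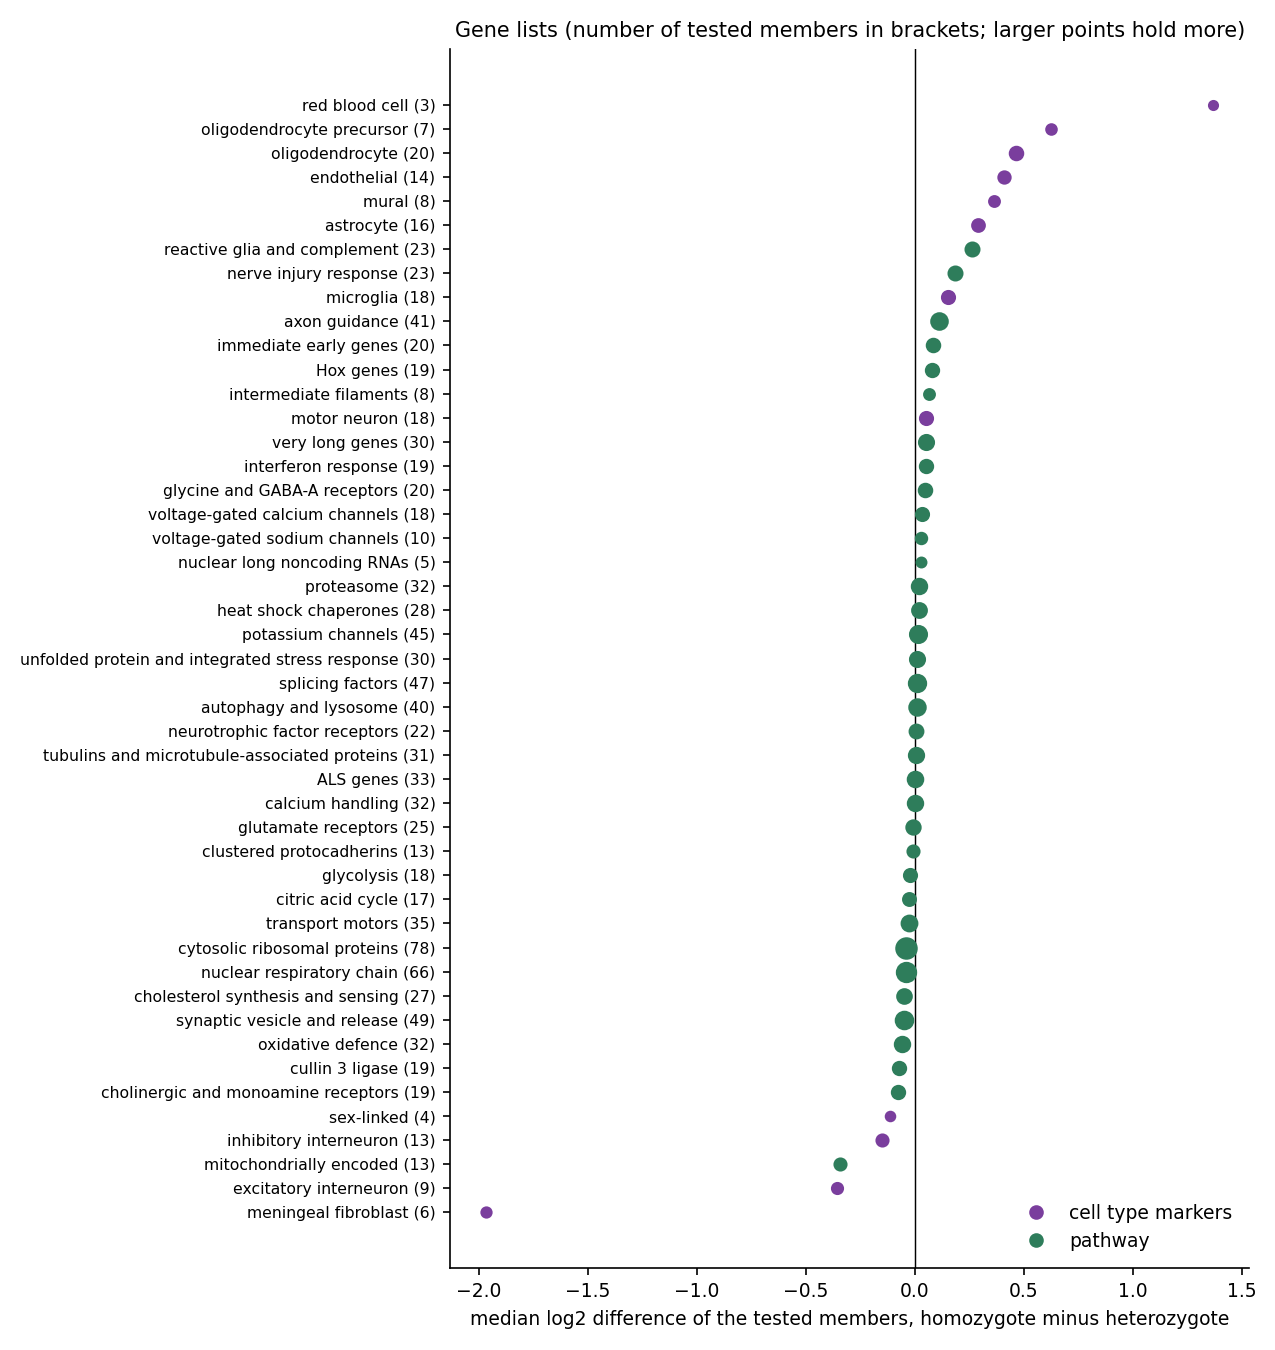
Median log2 difference of homozygotes minus heterozygotes (x axis) for the 47 gene lists with 3 or more tested members, with the number tested in brackets; purple marks cell type markers and green pathways. Of the 47 medians 32 lie within 0.1 of 0, 10 above and 5 below, and most of the far ones are short lists or cell type markers.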

How the data were processed

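Per the submitters' processing notes, the authors used Trim Galore 0.4.3 and HISAT2 2.0.5 with GRCm38, and they deposited raw counts per gene for 12 libraries. Which program and annotation were used for counting, and how it treated strand and reads with several matches, is not given in the sources used here. Of 25965 entries, 66 repeated a symbol and were kept apart, and 14858 (57.2%) matched GENCODE M21 by position. Ensembl identifiers are given only for those.

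Genes were kept with filterByExpr of edgeR 4.0.16 in R 4.3.3 (16338 genes), scaled by TMM (factors 0.94 to 1.03) and fitted with edgeR's quasi-likelihood model over all 12 libraries in 3 genotype groups, contrast homozygote minus heterozygote. Tests were two-sided with Benjamini-Hochberg adjustment over all tested genes, at a threshold of 0.05. The biological coefficient of variation was 0.57. The steps were tested on simulated data with 16006 tested genes. There edgeR recovered 8.33% of 1.5-fold and 42.6% of 2-fold changes, with 4 false calls in all. DESeq2 recovered 20.8% and 59.6%, with 59 false calls in all. DESeq2 1.42.0 and limma-voom (limma 3.58.1) were alternatives, beside other scalings and filters, a replicate block, the number of genes detected as covariate, a fit without wild type, and leaving out libraries.

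The comparison and its 48 gene lists were chosen with earlier results of these data known. Named are Tardbp, genes with an adjusted p below 0.05, the 10 smallest p-values in each direction, genes at 0 in one mutant genotype with 10 or more counts in each library of the other, up to 3 members of each list by p, and for each cell type its 2 most abundant markers. Other names were chosen after their values were seen. Older symbols were used for 13 list genes. Mitochondrial copies were sought among GENCODE transcripts by shared windows of 31 bases. Between any 2 of the 8 libraries chi-square over its degrees of freedom was at least 65.5, so none was a repeat of another. A few items are not reported here.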

Additional observations from a re-analysis of the deposited data

Results flagged for a closer look

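Of 157 groups of 4 libraries examined, 14 held a library whose gap to the nearest other passed Dixon's 95% critical value for 4 values, where chance gives about 1 in 20 groups, or 7.9. That rate assumes unselected and independent groups. Many of these genes were picked by p and all groups come from the same libraries, so it is only a rough guide. Heterozygote replicate 1 accounted for 6. It was far from the other heterozygotes in the summed motor neuron markers (10683 CPM), Aldoc (467 CPM), genes detected (16312), Gfpt2 (0.0141 CPM), Ptpn6 (0.0141 CPM) and Osmr (0.127 CPM), the last 3 against 0 in the other heterozygotes. With 3 libraries at 0 any other value in the remaining library passes, and without these 3 groups 11 of 154 held such a library, where chance gives 7.7, and heterozygote replicate 1 accounted for 3. Homozygote replicate 1 was far from the other homozygotes in the summed motor neuron markers (11471 CPM) and in Nefh, the heavy neurofilament chain (6950 CPM). Homozygote replicate 2 stood apart in Gfpt2 (0.821 CPM). Homozygote replicate 3 stood apart in mt-Co1 (1900 CPM) and in the mitochondrially encoded share (0.968% of counts). Homozygote replicate 4 stood apart in Fut4 (4.71 CPM), Fasl (0.0132 CPM) and the summed oligodendrocyte precursor markers (47.6 CPM).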

How the results depend on the processing

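Of 23 alternative settings, 22 gave 0 genes at an adjusted p below 0.05 between homozygotes and heterozygotes, and DESeq2 gave 3. The count at an unadjusted p below 0.05 ran from 342, with only the 8 libraries compared, to 853, without heterozygote replicate 1, and was 757 with no filter. For the named genes that were refitted, Tardbp aside, none of 1153 values changed direction. These genes were mainly picked for small p-values in the same libraries, so a kept direction is not independent evidence of a difference. Not every gene named above was refitted, and cell type markers such as Chat and Aldoc were not among them. For Tardbp the log2 difference ran from 0.00 to 0.08 when single libraries were left out, and was 0.00 without heterozygote replicate 4, on the other side of 0 before rounding. Of 1080 list medians 12 moved beyond their spread; the oligodendrocyte median ran from 0.353 to 0.557. The difference in the number of genes detected (-19.25) turned to 13.67, 22.33, 4.667 and 100.8 without heterozygote replicates 2, 3 and 4 and homozygote replicate 1 (range -117.7 to 100.8) and to 2.333 without both replicate 1 mutant libraries. That in the share of the 10 most abundant genes (0.09104 percentage points) turned to -0.1022, -0.155 and -0.3352 without heterozygote replicates 3 and 4 and homozygote replicate 1 (range -0.3352 to 0.5382). With the replicate number as a block, 0 genes passed and 606 (12 libraries) or 613 (8 libraries) had an unadjusted p below 0.05, and Tardbp differed by 0.05. Same-numbered mutant libraries correlated at 0.454, 0.071, 0.075 and 0.098 in their deviations. The value for replicate 1 was the highest of any pair, while not every other library correlated best with its own number. The labels do not say whether a number marks a shared litter or day, and these correlations cannot decide it. For transcripts under 1 CPM no 95% interval lay within 2-fold; the part of depth in this was not tested.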

Other observations

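The remaining lists give values not described above. Receptor genes held a few small p-values: Adra1b, an adrenergic receptor, was at 9.51, 13.2, 13.1 and 8.81 CPM in heterozygotes and at 15.6, 15.8, 16.8 and 13.2 CPM in homozygotes, and the serotonin receptor Htr5a was at 4.06, 4.96, 6.74 and 7.77 CPM and at 2.83, 3.95, 1.95 and 4.53 CPM. Both pairs of groups overlapped. Gabra4, a GABA-A receptor subunit, was at 0.338, 0.442, 0.105 and 0.0135 CPM in heterozygotes and at 1.07, 2.89, 1.71 and 0.0658 CPM in homozygotes, with homozygote replicate 4 as low as the heterozygotes. Hoxd9, a homeobox gene of lumbar identity, was at 22.2, 29.8, 27.3 and 20 CPM and at 28, 35.6, 32.8 and 31.9 CPM.

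Osmr, the receptor of oncostatin M, had 9 counts over the heterozygotes, all in replicate 1, and was at 1.07, 2.74, 0.0479 and 2.51 CPM in homozygotes. Rgs5, a marker of pericytes, was at 2.69, 2.61, 0.824 and 0.552 CPM in heterozygotes and at 3.9, 12, 5.01 and 1.22 CPM in homozygotes. Alas2, the haem synthesis enzyme of red blood cells, was at 0.015 to 0.577 CPM and 0.606 to 5.33 CPM, but Apex2 on the opposite strand held 444% as many counts, so its values are uncertain. Within 5 Mb of Tardbp on either side, 91 genes were tested, of which 2 had an unadjusted p below 0.05 and 58 were lower in homozygotes (median log2 difference -0.053). The shares were 2.2% and 63.7%, against 2.97% and 50.2% over all genes.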
